A study of Mus musculus with 4 samples.

Results

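Red cells and their precursors set their volume with a small group of membrane proteins that move potassium, sodium, chloride and calcium. The 8 genes described here encode such proteins: the potassium channels Kcnn4 and Kcnma1, the mechanically gated channel Piezo1, the cation chloride cotransporters Slc12a2, Slc12a4 and Slc12a7, and the calcium pumps Atp2b1 and Atp2b4. They were chosen by name, and every array feature annotated to exactly 1 gene was taken where that gene was on the list, older synonyms included. This gave 10 of 28944 features, for 7 of the 8 genes and of 19938 genes in all. Piezo1 had 3 features, Kcnma1 had 2 and the others had 1 each, while Atp2b4 had no such feature and was not analysed here. Expression was measured in 2 kinds of mouse erythroid culture, each with 2 cultures lettered A and B and 1 Affymetrix Mouse Gene 1.0 ST array per culture. The MEL group was an erythroleukemia line kept in serum-containing DMEM with glutamine and puromycin and set to differentiate with 17b-estradiol for 48 hours. The ES-EP group consisted of erythroid progenitors derived from ES cells. These had been expanded in StemPro34 medium with Epogen, hIGF-1, a glucocorticoid (dexamethasone) and murine SCF, and were then placed for 24 hours in that medium with Epogen, insulin and mifepristone, b-mercaptoethanol being present throughout. All 4 cultures were differentiating, so line, inducer, medium and hours varied together and their parts cannot be told apart. Each system is a single line, and neither the target of estradiol in MEL cells nor the gene that puromycin selected is given in the sources used here.

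In a red cell, calcium that enters through channels such as PIEZO1, which opens when the membrane is stretched, is pumped out again by the plasma membrane calcium ATPases, the ATP2B family. Calcium that is not removed opens KCNN4, the Gardos channel, and the loss of potassium that follows draws water out and shrinks the cell. The potassium chloride cotransporters, among them SLC12A4 (KCC1) and SLC12A7 (KCC4), carry potassium and chloride out and lower the volume of swollen cells, and they are most active in young red cells. SLC12A2 (NKCC1) works the other way and brings sodium, potassium and chloride in. KCNMA1 forms the large conductance BK channel, which is opened by calcium and voltage and is known best from smooth muscle and nerve. Inherited gain of function in PIEZO1 or KCNN4 causes red cells to lose water, the disorder known as hereditary xerocytosis.

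The promoter windows of 5 members are shown because these genes moved in opposite directions between the cultures, with Kcnn4, Slc12a7 and Atp2b1 higher in MEL and Slc12a4 and Piezo1 lower. Each window runs from 250 bases before to 50 bases after an annotated start site, 5′ to 3′ on the gene's strand. The windows come from RefSeq on build GRCm38.p6, and 9 windows of 7 members were examined. The 5 windows shown lie at chr7:24370013-24370312 on the plus strand, chr13:73763410-73763709 on the plus strand, chr10:98914392-98914691 on the plus strand, chr8:105966066-105966365 on the minus strand and chr8:122551280-122551579 on the minus strand. Slc12a7 and Atp2b1 have 2 windows each, of which the one with the lower coordinate is shown. Capitals mark CACGTG, an E-box, and GATAA or GATAG, the core bound by GATA factors, on either strand.
Kcnn4: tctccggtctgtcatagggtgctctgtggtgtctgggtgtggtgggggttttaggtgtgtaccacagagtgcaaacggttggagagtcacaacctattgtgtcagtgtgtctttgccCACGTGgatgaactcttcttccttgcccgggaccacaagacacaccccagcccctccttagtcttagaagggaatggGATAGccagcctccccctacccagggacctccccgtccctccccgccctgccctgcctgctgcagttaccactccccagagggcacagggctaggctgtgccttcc
Slc12a7: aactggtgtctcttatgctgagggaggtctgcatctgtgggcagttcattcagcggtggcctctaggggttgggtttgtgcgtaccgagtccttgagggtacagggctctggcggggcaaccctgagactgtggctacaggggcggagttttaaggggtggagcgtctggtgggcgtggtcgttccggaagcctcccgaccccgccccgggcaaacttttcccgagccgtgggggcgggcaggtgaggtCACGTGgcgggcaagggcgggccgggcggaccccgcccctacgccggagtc
Atp2b1: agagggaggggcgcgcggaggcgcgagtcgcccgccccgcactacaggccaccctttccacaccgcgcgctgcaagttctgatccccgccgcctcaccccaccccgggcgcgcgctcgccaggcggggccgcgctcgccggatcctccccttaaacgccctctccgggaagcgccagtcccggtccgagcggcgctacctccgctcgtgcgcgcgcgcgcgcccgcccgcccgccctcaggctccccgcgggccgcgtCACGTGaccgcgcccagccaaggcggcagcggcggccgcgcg
Slc12a4: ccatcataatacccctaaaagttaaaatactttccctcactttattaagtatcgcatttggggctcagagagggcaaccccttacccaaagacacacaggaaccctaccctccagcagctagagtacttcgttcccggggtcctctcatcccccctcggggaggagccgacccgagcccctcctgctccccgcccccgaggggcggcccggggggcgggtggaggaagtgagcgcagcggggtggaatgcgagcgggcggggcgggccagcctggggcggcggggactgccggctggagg
Piezo1: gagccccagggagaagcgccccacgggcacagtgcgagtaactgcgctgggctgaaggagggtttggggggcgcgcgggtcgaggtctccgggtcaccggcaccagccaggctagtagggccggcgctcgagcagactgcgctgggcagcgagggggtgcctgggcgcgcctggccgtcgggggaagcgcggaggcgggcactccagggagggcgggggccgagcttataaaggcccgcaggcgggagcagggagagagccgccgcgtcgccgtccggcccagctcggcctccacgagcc

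An E-box stood in the Kcnn4 window at bases 118 to 123, in the Slc12a7 window at bases 250 to 255 and in the Atp2b1 window at bases 259 to 264, counted from 1 at the 5′ end. The letters CACGTG occurred in 7.15% of all 32851 RefSeq windows of this length, and they were in none of the Slc12a4 or Piezo1 windows nor in the second Atp2b1 window. The Kcnma1 and Atp2b4 windows, not shown, also lacked them. No Slc12a2 window was examined, though that gene was higher in MEL as well, so the 5 windows do not cover all members. Whether the Slc12a2 promoter holds an E-box was not tested. The second Slc12a7 window, which overlaps the first, held the same E-box. A GATA core stood in the Kcnn4 window at bases 195 to 199 and in none of the other 4 windows shown. The Atp2b4 window, not shown, held GATA cores at bases 46 to 50 and 266 to 270. GATAA or GATAG was in 41.6% of all windows. CACCC, the core of KLF factor sites, was found 3 times in the Kcnn4 window, 3 times in that of Atp2b1, 2 times in that of Slc12a4 and 1 time in each of the other 2, against 57.5% of all windows with at least 1. GGGCGG, the GC box, occurred 6 times in the Slc12a4 window, 6 in that of Slc12a7, 4 in that of Atp2b1 and 1 in each of Kcnn4 and Piezo1, against 35.7% of all windows with at least 1. The Kcnn4 window was the poorest in CpG of the 5, with 6 CpG and 59.7% G or C, where the other 4 had 20 to 54 CpG and 65.0% to 79.3% G or C. The medians over all windows were 7 CpG and 52.7% G or C. These motifs were picked with the windows and the expression values in view, so they describe the windows and are no evidence of binding.

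Arrays of a group were close to each other (r = 0.997 for MEL and 0.998 for ES-EP across features) and further from the other group (0.948 to 0.949). Features are not replicates, and these correlations only describe the arrays. Values are on the log2 scale of RMA, the robust multi-array average, and a feature was called where limma gave an adjusted p under 0.05 (Benjamini-Hochberg over all features). By this rule 19.1% of all features were higher in MEL and 37.4% lower. Over the arrays the median difference of all features was -0.15, and after cyclic loess it was 0.00, so small differences are best read against that shift.

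The volume regulation genes split into both directions, and every measured feature of them passed. Kcnn4, Atp2b1, Slc12a2 and Slc12a7 were higher in MEL cells, Slc12a4 and all 3 Piezo1 features were lower, and the features named for Kcnma1 opposed each other. Of the 10 features 5 were higher and 5 lower. At 2-fold or more 3 were higher, against 6.27% of all features, and 0 lower, against 5.17%. With the brightest feature standing for each gene, 5 genes were higher and 2 lower, where 21.8% and 36.9% of all genes were, and 3 and 0 at 2-fold or more, where 7.38% and 4.93% of all genes were. Without the brighter Kcnma1 feature, 4 features were higher and 5 lower. With the dimmer feature standing for Kcnma1, 4 genes were higher and 3 lower. The brighter one, whose annotation is taken up below, was also among the 3 at 2-fold or more. The values of the 2 groups did not overlap for any of the 10 features, which held for 79.4% of all features as well. In bulk RNA, fewer cells with a transcript and less transcript per cell cannot be told apart. Nothing in the labels says that the cultures of a group were grown separately, so each p-value reflects only how far these cultures vary, which may be technical.

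**Figure D1:**
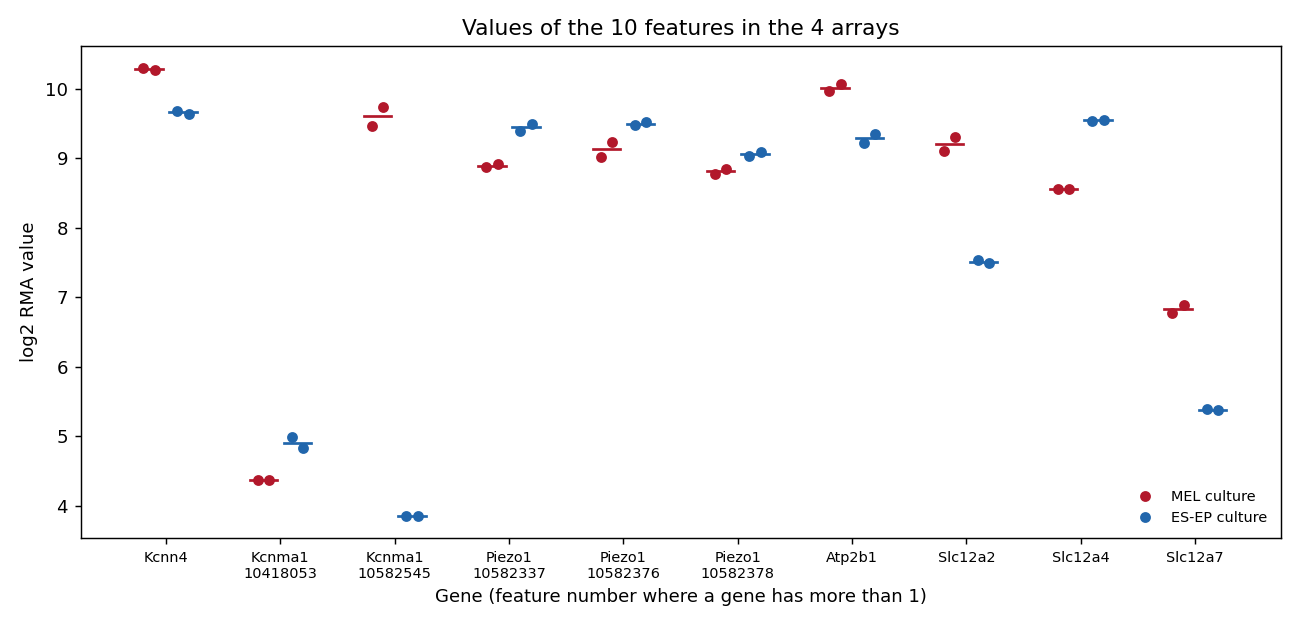
Log2 RMA values (vertical axis) of the 10 features in each of the 4 arrays, with MEL cultures in red and ES-EP cultures in blue. Points are single arrays and bars are group means. The cultures of a group lie close together for every feature, and the feature 10582545 named for Kcnma1 runs from 3.85 in ES-EP to 9.60 in MEL.

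Among the cotransporters the inward carrier Slc12a2 differed most. Its feature 10455873 read 9.11 and 9.30 in MEL cultures A and B and 7.54 and 7.49 in ES-EP cultures A and B. Both MEL values lay well above both ES-EP values. Slc12a2 was 3.23-fold higher in MEL (difference of log2 values 1.69 ± 0.10, SE, n = 2 per group, limma adjusted p = 8.88e-06), and 4.19% of all features differed by more in size.

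The outward carriers Slc12a7 and Slc12a4 went opposite ways. Slc12a7, the KCC4 gene (feature 10406111), read 6.78 and 6.88 in MEL against 5.38 and 5.38 in ES-EP cultures, with the MEL cultures higher throughout. It was 2.73-fold higher in MEL (1.45 ± 0.08, SE, n = 2 per group, limma adjusted p = 1.01e-05). Slc12a4, the KCC1 gene (feature 10581395), read 8.56 and 8.55 in MEL against 9.54 and 9.56 in ES-EP cultures. Its duplicates lay close together and the groups far apart. It was 1.99-fold lower in MEL (-0.99 ± 0.08, SE, n = 2 per group, limma adjusted p = 5.00e-05). Taken within each array, which removes any shift common to a whole array, the Slc12a7 value minus the Slc12a4 value was 2.44 higher in MEL than in ES-EP on the log2 scale, and the Slc12a2 value minus the Slc12a4 value was 2.68 higher. The exact two-sided permutation test gave p = 0.333 for each, which is the smallest that 4 arrays allow. The Slc12a2 value minus the Slc12a7 value was 0.24 higher in MEL, also with p = 0.333 in the exact permutation test.

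The WNK kinases respond to chloride and crowding, and through Stk39 (SPAK) and Oxsr1 (OSR1) they switch SLC12A2 on and the potassium chloride cotransporters off. Of 13 measured genes among these kinases, their partners and further SLC12 carriers, 3 were higher, 3 lower and 7 did not pass (21.8% and 36.9% of all genes were higher and lower), with a median difference of -0.04 against -0.14 over all genes. Quantile normalization gave 5 higher and 1 lower, and cyclic loess 6 and 2. Slc12a9, a family member without a settled role in ion transport, had the largest rise, 2.67-fold, at 7.51 and 7.28 in MEL and 6.00 and 5.95 in ES-EP cultures (limma adjusted p = 2.66e-05). Wnk4 had the largest fall, 1.67-fold, at 6.15 and 6.21 in MEL against 6.95 and 6.88 (limma adjusted p = 0.000278). Wnk1 gave a difference of -0.04 on its brighter feature 10547436, which did not pass, while its feature 10547469 was 2.36-fold lower (-1.24, limma adjusted p = 0.000776). Oxsr1 had the highest mean over the 4 arrays and was 1.18-fold higher (limma adjusted p = 0.0392). Cab39, the scaffold MO25 that helps activate these kinases, was 1.28-fold higher (limma adjusted p = 0.011), and Stk39 was lower (-0.47) at a dim 4.41 in MEL. The kidney carriers Slc12a1 and Slc12a3, the neuronal Slc12a5, and Slc12a8 did not pass, with differences of -0.21, 0.30, 0.23 and -0.07. Their 95% intervals reached from -0.41 to -0.01 for Slc12a1, from -0.03 to 0.64 for Slc12a3, from -0.01 to 0.46 for Slc12a5 and from -0.26 to 0.13 for Slc12a8.

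Kcnn4, the Gardos channel gene, was well expressed in both systems and higher in MEL. Its feature 10550877 read 10.29 and 10.27 in MEL and 9.68 and 9.64 in ES-EP cultures. The spread of the duplicates, 0.01 and 0.03 (SD, n = 2), was far smaller than the gap between the groups. The difference was 0.62 ± 0.08 (SE, n = 2 per group, limma adjusted p = 0.000558), 1.54-fold, and 23.5% of all features differed by more.

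The other channels of its family were not alike. Kcnn1 codes for a small conductance potassium channel of the nervous system. It read 6.95 and 6.98 in MEL and 6.36 and 6.20 in ES-EP cultures, 1.60-fold higher in MEL (limma adjusted p = 0.000657). Kcnn2 and Kcnn3, further small conductance channels, did not pass, with differences of 0.00 (95% interval -0.33 to 0.33) and 0.08 (-0.13 to 0.29). The list of small and large conductance channel subunits had 3 higher and 4 lower genes of 12 and 5 that did not pass. Among all genes 21.8% were higher and 36.9% lower. The median difference of the list was -0.08. After cyclic loess 5 were higher and 3 lower. The highest group mean on this list was 6.96, of Kcnn1 in MEL.

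Kcnma1 gave no single answer, because its features 10418053 and 10582545 disagreed. Feature 10418053 was dim, at 4.37 and 4.37 in MEL and 4.99 and 4.82 in ES-EP cultures, and lower in MEL (-0.54 ± 0.09, SE, n = 2 per group, limma adjusted p = 0.00199). Its level lay at the 26.2th percentile of all features. Feature 10582545 read 9.47 and 9.74 in MEL and 3.86 and 3.85 in ES-EP cultures, higher in MEL by 5.75 ± 0.11 (SE, n = 2 per group, limma adjusted p = 8.99e-08). No fold is given for either feature. The ES-EP values of 10582545 and the MEL values of 10418053 lay below the 25th percentile of feature means, 4.58, and no detection calls show whether they exceed background. Only 0.0518% of all features differed by more than 10582545.

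The annotation of these features differed as much as their values. Features with neighbouring numbers mostly belong to genes of 1 chromosome. All 10 named features nearest to 10418053 in number, 5 on each side, belonged to genes on chromosome 14, which carries Kcnma1. Around 10582545 none did, and all 10 belonged to genes on chromosome 8, with Fanca before it and Dbndd1 after it. Of the 21698 features matched to RefSeq genes, 593 (2.73%) stood like this, with no such neighbour on their gene's chromosome. All 10 neighbours of each of the 8 features of the other members were on the chromosome of their gene. Feature 10418053 listed 17 RefSeq transcript accessions among 20, feature 10582545 listed 0 among 4, and the features shared 0. Of all 21789 named features 3.58% had no RefSeq transcript accession. Whether feature 10582545 detects Kcnma1 RNA was not tested. The unnamed feature 10582549, next in number, was also higher in MEL, at 5.80 and 5.94 against 4.46 and 4.44.

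The accessory subunits of the BK channel differed in direction. Kcnmb1, the subunit known from smooth muscle, read a dim 4.39 and 4.15 in MEL and 5.24 and 5.40 in ES-EP cultures, lower in MEL (-1.05, limma adjusted p = 0.00019). Kcnmb4, known from neurons, was 1.58-fold lower at 4.83 in MEL (limma adjusted p = 0.000975). Kcnmb2 did not pass (-0.17, 95% interval -0.38 to 0.04). Kcnmb3 was 1.30-fold higher (limma adjusted p = 0.0454). Markers of smooth muscle and stromal cells had 2 higher and 5 lower genes of 10, beside 21.8% and 36.9% of all genes. Their summed signal was 9.34 to 9.43 in MEL, against 9.33 to 9.43 in ES-EP (log2 of the sum).

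Piezo1 was lower in MEL on each of its 3 features. Feature 10582337 read 8.87 and 8.91 in MEL and 9.40 and 9.49 in ES-EP cultures, feature 10582376 read 9.02 and 9.24 against 9.48 and 9.52, and feature 10582378 read 8.78 and 8.85 against 9.03 and 9.09. The groups were separate on each feature, though by less than for the cotransporters. The differences were -0.55 ± 0.08, -0.37 ± 0.10 and -0.25 ± 0.08 (SE, n = 2 per group), or 1.47-fold, 1.29-fold and 1.19-fold, with limma adjusted p of 0.00121, 0.0161 and 0.0381. These features share the gene and are no replicates of each other. The sign held under all 3 other scalings, where the differences ran from -0.45 to -0.50, from -0.26 to -0.31 and from -0.15 to -0.22. The call of 10582378 was lost after median centring (adjusted p = 0.249) and cyclic loess (0.117), and without ES-EP culture A (0.131), ES-EP culture B (0.2195) or MEL culture A (0.0815). That of 10582376 was lost when either ES-EP culture was left out (0.0539 without A and 0.0758 without B).

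**Figure D2:**
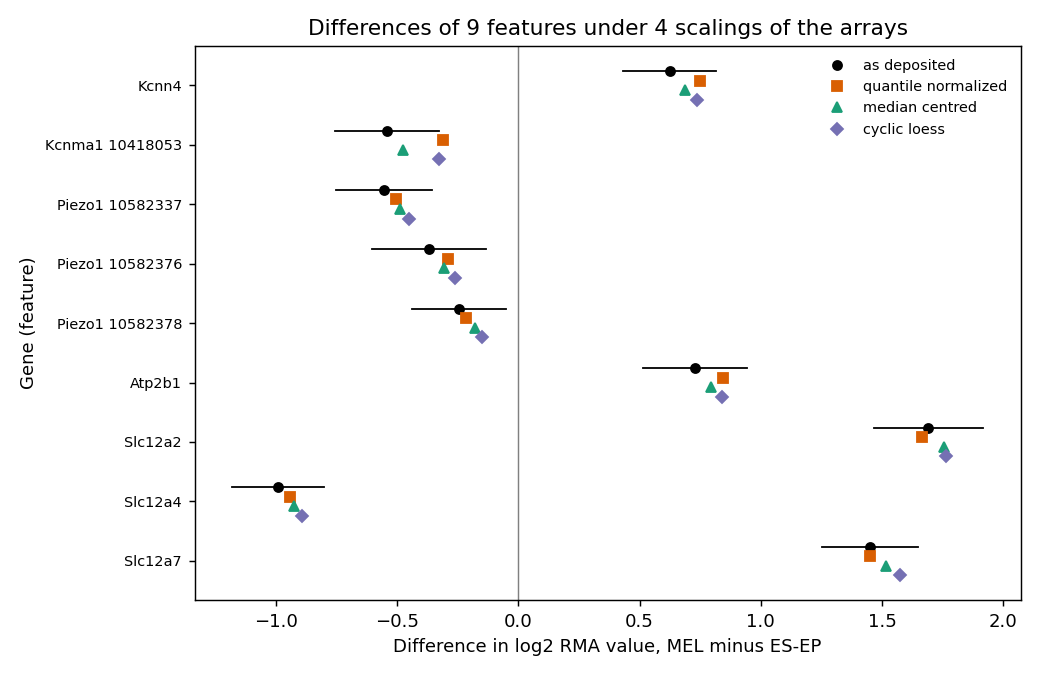
Difference in log2 RMA value, MEL minus ES-EP (horizontal axis), for 9 features on the values as deposited and after 3 other scalings of the arrays. Black bars are 95% intervals of the limma fit to the deposited values. All 9 keep their side of 0 under each scaling, and the feature 10582545 named for Kcnma1, at 5.61 to 5.90 over the alternatives tried, is left off for scale.

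Other channels that let calcium in or release it from stores were moved in both directions. Of 19 measured genes 6 were higher, 9 lower and 4 did not pass, beside 21.8% higher and 36.9% lower among all genes. The median was -0.22 against -0.14 over all genes, and after cyclic loess 7 were higher and 6 lower. Piezo2, the relative of Piezo1 that serves touch, was dim and did not pass (-0.13, 95% interval -0.44 to 0.18). Trpc1, a subunit of a calcium-permeable channel, had the largest rise, 4.86-fold, at 7.41 and 7.58 in MEL and 5.22 and 5.21 in ES-EP cultures (limma adjusted p = 1.62e-06). Itpr2, a receptor that releases calcium from the endoplasmic reticulum, had the largest fall, 3.53-fold, at 6.76 and 6.87 in MEL against 8.57 and 8.70 (limma adjusted p = 4.69e-06). Trpm7, a channel with a kinase domain, had the highest mean over the 4 arrays and did not pass (-0.22, 95% interval -0.46 to 0.02). The next genes were picked after their values were seen. Itpr3, the sister receptor of Itpr2, was 3.497-fold higher. The ATP-gated channels P2rx1 and P2rx7 went apart, with P2rx1 2.89-fold higher and P2rx7 3.16-fold lower. Orai3, a pore subunit of store-operated entry, was 2.34-fold lower.

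Atp2b1, the widely expressed plasma membrane calcium pump PMCA1, was higher in MEL. Its feature 10366004 read 9.97 and 10.07 in MEL and 9.22 and 9.35 in ES-EP cultures, with every MEL value above every ES-EP value. The difference was 0.73 ± 0.09 (SE, n = 2 per group, limma adjusted p = 0.000458), 1.66-fold, and 18.7% of all features differed by more. Within each array the Atp2b1 value minus that of Piezo1 feature 10582337 was 1.28 higher in MEL than in ES-EP, and the Kcnn4 value minus that of the same feature was 1.18 higher, each with an exact two-sided permutation p of 0.333. That feature was taken for its lowest number and had the largest fall of the Piezo1 features (-0.55, against -0.37 and -0.25). With either other feature both differences would be smaller.

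Atp2b2, a pump of neurons, did not pass (-0.07, 95% interval -0.32 to 0.18), and Atp2b3 was dim and 1.28-fold lower (limma adjusted p = 0.0246). Atp2a3, the SERCA3 pump that fills the endoplasmic reticulum in blood cells, had the largest rise of the list, 16.7-fold, at 9.53 and 9.59 in MEL and 5.58 and 5.42 in ES-EP cultures (limma adjusted p = 1.38e-07). Slc8a3, a sodium calcium exchanger, had the largest fall, to 4.92 in MEL from 5.51 in ES-EP cultures (limma adjusted p = 0.00238). Calm2, which codes for calmodulin, the sensor that activates both the ATP2B pumps and KCNN4, had the highest mean over the 4 arrays. Its feature 10599461 was 1.31-fold higher in MEL (limma adjusted p = 0.00553), and its feature 10453451 did not pass (0.20, adjusted p = 0.0694). In all 5 of 13 measured calcium removal genes were higher, 4 lower and 4 did not pass, beside 21.8% higher and 36.9% lower among all genes. Their median was -0.13, and after cyclic loess 5 were higher and 1 lower.

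The sodium pump, which builds the gradients that the cotransporters use, was listed together with the proton exchangers. Of 17 measured genes on this list 7 were higher and 3 lower, where 21.8% and 36.9% of all genes were. At 2-fold or more 4 were higher and 0 lower, where 7.38% and 4.93% of all genes were, and the median difference was -0.10. Fxyd5, a regulator of the sodium pump, had the largest rise, 18.4-fold, at 8.89 and 8.92 in MEL and 4.82 and 4.59 in ES-EP cultures (limma adjusted p = 1.64e-07). Its relative Fxyd3 had the largest fall, 1.54-fold (limma adjusted p = 0.00127). Atp1b3, a beta subunit of the pump, had the highest mean over the 4 arrays and did not pass (-0.10, 95% interval -0.30 to 0.11). Slc9a7, a proton exchanger of the Golgi named after its value was seen, was 4.56-fold higher.

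The list of anion, water and swelling-activated channels went both ways. It also held anion exchangers and other proteins that are no such channels, among them Kel, Xk, Stom and Rhag. Of 20 measured genes 11 were lower, 7 higher and 2 did not pass, beside 36.9% lower and 21.8% higher among all genes. The median was -0.28. Slc4a1, the band 3 anion exchanger that also anchors the membrane skeleton, had the largest fall, 43.4-fold, at 6.98 and 7.10 in MEL against 12.45 and 12.51 in ES-EP (limma adjusted p = 7.05e-08). Aqp9, a channel for water and glycerol, had the largest rise, 10.3-fold, at 8.94 and 8.94 in MEL and 5.50 and 5.67 in ES-EP cultures (limma adjusted p = 3.04e-07). Rhag, the Rh-associated glycoprotein, had the highest mean over the 4 arrays and was 1.20-fold lower (limma adjusted p = 0.0315). The following were named after their values were seen. Aqp3, another channel for water and glycerol, was 15.4-fold lower, at 5.94 and 5.68 in MEL and 9.68 and 9.83 in ES-EP cultures. The water channel gene Aqp1 was 4.96-fold higher, at 11.19 and 11.08 in MEL and 8.81 and 8.85 in ES-EP cultures. Subunits of the volume-regulated anion channel differed among themselves. Lrrc8a, the subunit every such channel needs, was 2.01-fold higher, Lrrc8d 5.00-fold higher and Lrrc8e 1.43-fold higher, while Lrrc8b was 1.22-fold lower and Lrrc8c did not pass (-0.19, 95% interval -0.39 to 0.01).

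**Figure D3:**
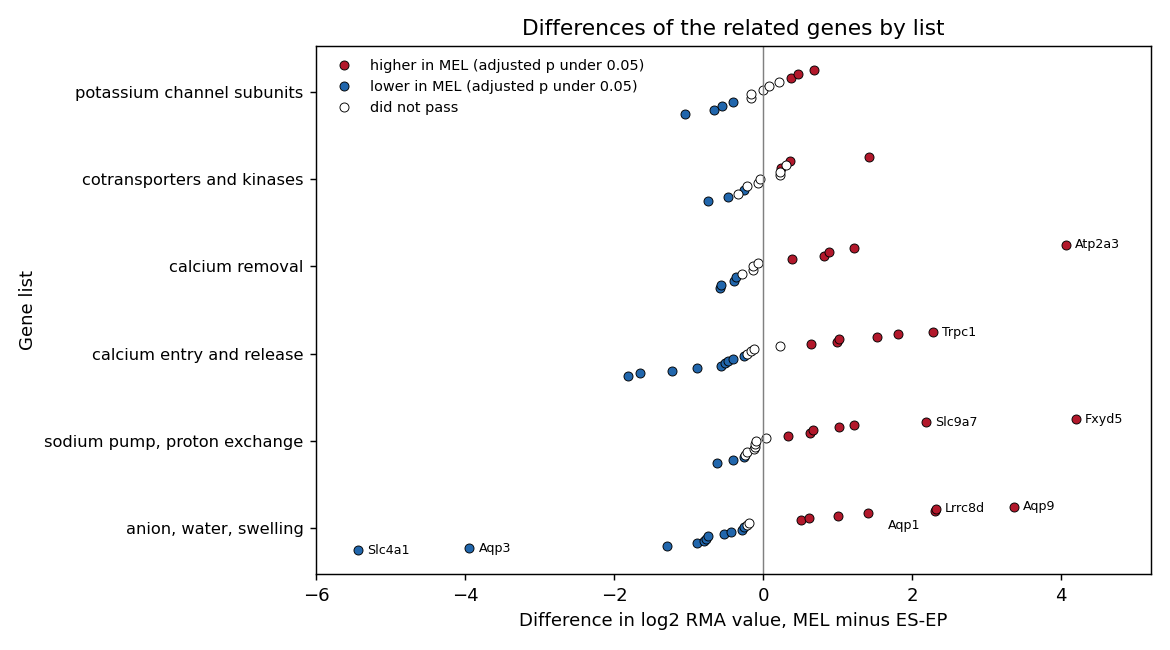
Difference in log2 RMA value, MEL minus ES-EP (horizontal axis), for the 94 related genes with a feature of their own, by list. Each point is a gene, filled red where higher and blue where lower at a limma adjusted p under 0.05, and genes beyond 2 on either side are named. Lists of calcium, sodium and water handling reach further from 0 than those of channel subunits and cotransport kinases.

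Over the 6 lists together, 31 of 94 measured genes were higher and 34 lower, beside 21.8% and 36.9% of all genes, with a median of -0.13 beside -0.14 over all genes. After cyclic loess 38 were higher and 23 lower. Of these genes 16 were at least 2-fold higher and 7 at least 2-fold lower, beside 7.38% and 4.93% of all genes. The scaling moved the split of the whole array as well, where 33.8% of the called features were higher as deposited, 51.9% after cyclic loess and 45.6% when quantile normalized.

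Of the 10 measured erythroid markers all but Trim10, at 6.86 in ES-EP, had a mean of at least 9.58 in both groups, and no marker of another cell type had a group mean above that of Itga2b in MEL, 9.12. Among these erythroid genes 7 were lower in MEL and 3 higher, and the log2 of their summed signal was 14.42 and 14.48 in MEL and 15.07 in both ES-EP cultures. Megakaryocyte markers had 5 higher and 1 lower of 8, with sums of 10.53 to 10.55 against 9.49 to 9.68. The brightest genes weigh most in such sums. Itga2b read 9.12 in MEL and 6.89 in ES-EP and Pf4 8.34 and 3.96, while Itgb3, the lower one, read 5.57 and 7.94. Myeloid markers had 2 higher and 5 lower of 11, at 9.02 to 9.06 against 8.91 to 8.92. Mast cell markers had 0 higher and 7 lower of 10, at 8.30 to 8.38 against 9.19 to 9.24. Among the mast cell markers Ms4a2 had the largest fall, to 3.93 in MEL from 7.45 in ES-EP. Over all genes 21.8% were higher and 36.9% lower, beside which these marker counts are to be read. RMA values have no true 0, so none of these markers is listed at 0. The part of such cells in the differences above was not tested.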

How the data were processed

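Expression was measured in 2 MEL and 2 ES-EP cultures, grouped by their titles. The values deposited by the authors are log2 signals from RMA in GeneSpring GX, per the labels. Their range fits a log2 scale. No source used here names the software version, the filters or which arrays were normalized together. RMA compresses low values and hides a change in total RNA. No detection calls were given. Of 35557 features, the lowest-numbered 6613 are control features of the array's design and were left out, and 28944 were tested. A platform annotation, updated through Entrez identifiers with a RefSeq table of GRCm38.p6 (21698 matched), gave 21789 features 1 symbol, 1621 several and 5534 none. No feature coordinates are printed, since no source used here names the build of the array.

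The comparison used limma 3.58.1 under R 4.3.3 (lmFit and eBayes without covariates, 2 residual and 5.15 prior degrees of freedom), with Benjamini-Hochberg adjustment over all features. The brightest feature stood for a gene in gene counts. The number of arrays limits the precision. Of 104 genes on 6 related lists 94 were measured. Besides the members, the text names the passing genes with the largest rise and fall of each list, its brightest gene by the mean over the 4 arrays, and every measured Kcnn, Kcnmb, Slc12, Atp2b and Piezo gene. The few others were chosen after their values were seen. Members and lists were chosen with earlier results of these data known. The procedure was tested on simulated data. Alternatives were 3 scalings, 2 priors, 2 filters on dim features, other feature sets, the replicate letter as a block, 3 fold criteria, mean features and each culture left out. Counts without the brighter Kcnma1 feature were added after seeing the data. Letters A and B pair no cultures in the labels.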

Additional observations from a re-analysis of the deposited data

How the results depend on the processing

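All 10 member features kept their direction under every alternative that could fit them. Both Slc12a2 and Slc12a7 kept their calls under all of them, with differences of 1.59 to 1.79 and 1.40 to 1.58, as did the Kcnma1 feature 10582545 at 5.61 to 5.90, and Slc12a4 (-1.002 to -0.89) lost its call only at the 2-fold criterion. Kcnn4 (0.60 to 0.75), Atp2b1 (0.66 to 0.84) and the Kcnma1 feature 10418053 (-0.62 to -0.31) lost theirs only under fold criteria, and the filter at the median signal left that feature out. All 3 Piezo1 features lost theirs under every fold criterion. With control features included, Piezo1 feature 10582378 lost its call (adjusted p = 0.062).

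Most counts fell where a fold was asked for, though the member features and genes higher in MEL did not fall at 1.5-fold. Of all features 3193 were higher and 4272 lower at 1.5-fold, 1816 and 1495 at 2-fold, and 2113 and 1753 with treat against 1.5-fold. Member features numbered 5 higher and 1 lower at 1.5-fold, 3 higher and 0 lower at 2-fold, and 3 higher and 1 lower with treat. Member genes numbered 5 and 1, 3 and 0, and 3 and 1 in the same order. Related genes numbered 24 and 16, 16 and 7, and 18 and 8. Cyclic loess left 7084 features lower. With features under the median signal left out, 5479 features and 20 related genes were lower, from fewer features tested. With a culture left out, 3 to 5 member features and 1 to 2 member genes were lower, the lowest counts without ES-EP culture A or B, when Piezo1 feature 10582376 lost its call, and the lone culture of the group was then assumed to vary like the others. With the dimmer feature for Kcnma1, 4 member genes were higher and 3 lower. The replicate block gave 5595 higher and 11129 lower features and changed no member's call. The deviations of same-lettered cultures correlated at 0.11 across features, and the labels do not say that letters pair them.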

Other observations

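Among the features of the related genes, 4 had no neighbour in feature number on the chromosome of their gene. They were 10436426 of Orai2, 10559513 of Cab39, 10598994 of Atp1b3 and 10599461 of Calm2, and for Orai2 and Calm2 such a feature was the brighter and stood for the gene in the counts. Feature 10534570 of Orai2 was also lower in MEL (-0.38, limma adjusted p = 0.00808). Feature 10598994 of Atp1b3 was lower (-0.29, limma adjusted p = 0.0342) where the brighter one did not pass.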
